A study of Mus musculus with 7 samples.

Results

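The 9 genes described here are regulators and early products of sclerotome and cartilage, picked by name and read as rows of a table of 30590 rows: Sox9, Sox5, Sox6, Pax1, Pax9, Nkx3-2, Runx2, Acan and Matn1. All 9 were in the table, and 8 were among the 21813 genes tested. Nkx3-2 was listed at 0 in every library. RNA came from 7 libraries of a mouse embryonic stem cell line called Bry-GFP, a name used for cells with GFP placed at the Brachyury gene. Day 0 cells (2 libraries) grew with serum and LIF on a feeder layer of mouse embryonic cells (mEF), and the labels do not tell whether that layer was still present when RNA was made. Day 2 cells (2 libraries) were embryoid bodies, free-floating aggregates held for 48 h without feeders or serum, and day 4 cells (2 libraries) had then had 48 h of 3 added factors, namely Noggin (150 ng/mL), a BMP antagonist, with Wnt3a (25 ng/mL) and Activin A (9 ng/mL). Day 6 cells (1 library) had had a further 48 h with basic FGF at 10 ng/mL in place of those factors. All groups share the line and carry no other labelled genotype, and the labels call the replicates biological without saying what was separate.

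Sclerotome is the ventral part of the somite, the segment of paraxial mesoderm beside the neural tube, and gives rise to the vertebrae and ribs. Sonic hedgehog from notochord and floor plate induces Pax1, Pax9 and Nkx3-2 there, and cells that turn on Sox9 condense into cartilage. SOX9 then binds the genes of cartilage matrix together with SOX5 and SOX6, which lack an activation domain of their own and strengthen its action, whereas RUNX2 drives bone and the late, hypertrophic cartilage cell. Several of these genes also have roles outside the skeleton: the SOX trio in neural crest and neural progenitors, and Pax1 and Pax9 in pharyngeal endoderm.

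Levels are log2 of 1 plus scaled reads. A level is called readable above that of 3 reads in the same library, which lay between 1.45 and 2.30. Rough depth, read from the step that 1 read makes in the low values, ran from 2880000 to 6520000 reads per library. Sox9 and Sox5 were readable in all 7 libraries, Sox6, Pax9 and Runx2 in 6, Acan in 5 and Pax1 in 2, while Nkx3-2 and Matn1 were readable in none. The label sclerotome therefore rests here on few reads: of the 3 factors that define it, Nkx3-2 was listed at 0 throughout, and Pax1 and Pax9 never reached the level of 12 reads in any library.

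Sox5 and Sox6, which encode close relatives and were both highest on day 6, are shown by sequence upstream of their start sites. RefSeq windows of build GRCm38.p6 were matched for 8 of the 9 members, all but Sox9, and the 250 bases before each start were searched on both strands. The letters searched were ACAAAG, a core shared by SOX and TCF/LEF factors, TGTGGT, a core of RUNX factors, GACCACCC, a core of GLI factors, and TATAAA. They occur in 16.5%, 14%, 0.703% and 12.4% of all 32851 such windows. Capitals mark a match, and bases that lie in an annotated exon of the gene are left out.

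Sox5 internal start, chr6:143947107-143947356, minus strand: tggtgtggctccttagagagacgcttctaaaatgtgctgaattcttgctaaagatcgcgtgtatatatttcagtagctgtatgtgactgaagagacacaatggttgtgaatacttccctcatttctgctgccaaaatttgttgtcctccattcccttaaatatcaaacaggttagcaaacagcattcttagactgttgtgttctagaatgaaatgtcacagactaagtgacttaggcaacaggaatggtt
Sox6 outermost start, at the 5′ end of the gene, chr7:116038797-116038994, minus strand: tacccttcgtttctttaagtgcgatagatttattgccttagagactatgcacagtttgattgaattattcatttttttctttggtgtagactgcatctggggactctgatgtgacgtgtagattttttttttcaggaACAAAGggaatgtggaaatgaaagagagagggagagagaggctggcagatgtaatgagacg
Sox6 internal start, chr7:115824711-115824960, minus strand: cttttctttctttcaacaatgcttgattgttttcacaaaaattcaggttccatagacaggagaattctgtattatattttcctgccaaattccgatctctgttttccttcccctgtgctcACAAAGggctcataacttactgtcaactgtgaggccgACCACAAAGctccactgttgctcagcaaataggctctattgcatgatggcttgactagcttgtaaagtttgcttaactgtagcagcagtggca

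The Sox5 window lies before a start inside the gene, 834871 bases downstream of the annotated gene start, and held none of the 4 cores. Of the 6 Sox6 windows, 5 held ACAAAG, and the Sox6 internal window printed here held it at 130 and 90 bases before the start, the second of these overlapping a RUNX core on the other strand. None of the 13 windows of the 8 members held the GLI core. A match describes letters only, and the table gives 1 value per gene, so which start was used was not measured.

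The SOX trio was at its highest in the day 6 library. Sox9 (chr11:112782224-112787760, plus strand, GRCm38 as for all genes here) had levels of 4.56 and 4.81 in the day 0 libraries, 3.76 and 3.43 in those of day 2, 6.35 and 5.50 in those of day 4 and 6.89 in that of day 6. Both day 2 libraries lay below both of day 0, and both of day 4 lay above every earlier library. Its day 2 level rested on about 11 and 7.3 reads. From day 2 to day 4 Sox9 rose from 3.60 ± 0.23 to 5.93 ± 0.60 (SD, n = 2), a 5.03-fold change (log2 2.33, SE 0.37, adjusted p = 0.0281 by limma). It was the 1 member called of 8 tested in that comparison, where 3.59% of all genes were called, 1.45% higher and 2.13% lower. Leaving out any of the 6 libraries of days 0 to 4 ended that call (adjusted p = 0.119 to 0.197), with log2 changes from 1.91 to 2.75. In that comparison limma called 0 genes of the whole table after each such omission, with 3511 to 5139 genes at an unadjusted p under 0.05. The earlier change of Sox9, from day 0 to day 2, was -1.09 (adjusted p = 0.111), and the later change, to day 6, was 0.96 (adjusted p = 0.246). Neither passed.

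Sox5 (chr6:143828425-144781977, minus strand), a SOXD factor, had levels of 2.94 and 3.35 in the day 0 libraries, 3.15 and 2.77 in those of day 2, 4.49 and 4.64 in those of day 4 and 6.52 in that of day 6. Days 0 and 2 overlapped, with about 4.4 to 11.3 reads in each library, and days 4 and 6 lay above them. Against day 0, day 4 was higher by a log2 of 1.42 (SE 0.37, adjusted p = 0.0369), a 2.67-fold change. The step from day 2 to day 4 was 1.61 (adjusted p = 0.069) and that from day 4 to day 6 was 1.95 (adjusted p = 0.0613), each close to the threshold without passing it. When the fit was held to genes averaging log2 of 11 or more, both steps passed (adjusted p = 0.0414 and 0.0336). Sox5 met that filter only through days 4 and 6, having averaged 3.15 on day 0 and 2.96 on day 2. Those passes are therefore no separate support for either step. Over the changes of setting that left no replicate out, limma gave the step to day 4 adjusted p = 0.0414 to 0.105. The day 4 against day 0 call was lost without any 1 library of those days (adjusted p = 0.0876 to 0.121).

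Sox6 (chr7:115470872-116038796, minus strand), the other SOXD factor, had levels of 1.84 and 2.14 in the day 0 libraries, 3.78 and 1.09 in those of day 2, 4.58 and 3.92 in those of day 4 and 5.74 in that of day 6. The day 2 libraries disagreed, with about 11.2 reads in replicate 1 and 1.0 in replicate 2. Day 4 lay above all earlier libraries and day 6 above day 4. No step passed: day 2 to day 4 was 1.81 (95% interval -0.24 to 3.87, adjusted p = 0.292) and day 4 against day 0 was 2.26 (0.21 to 4.32, adjusted p = 0.115). Without day 2 replicate 1 or 2 the step from day 2 to day 4 was 3.16 or 0.47, and without either of them day 4 against day 0 passed (adjusted p = 0.0342 or 0.0305).

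**Figure D1:**
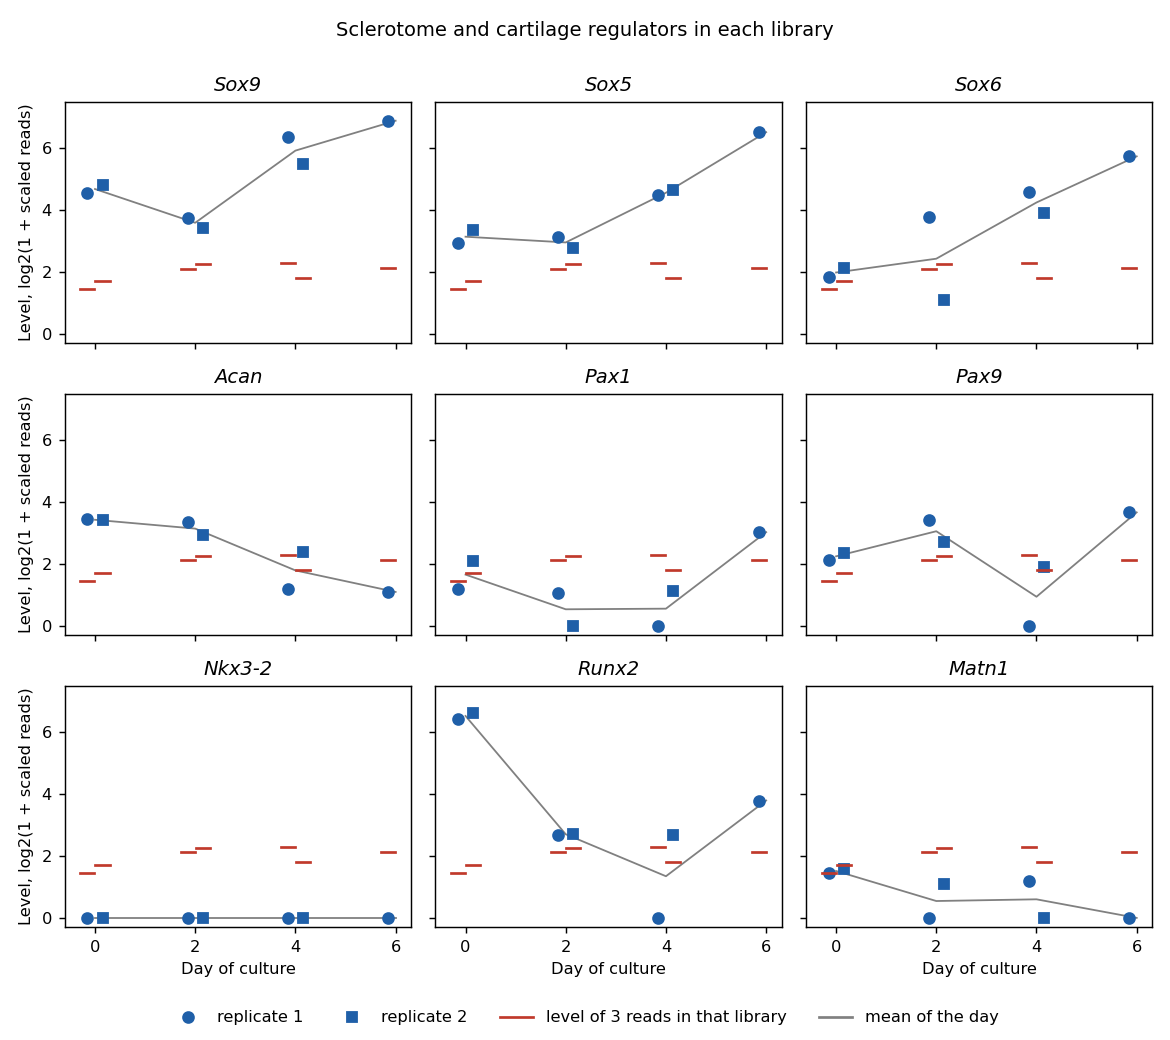
Level (log2 of 1 plus scaled reads) of each of the 9 genes by day of culture. Each point is a library (circle, replicate 1; square, replicate 2), red bars give the level of 3 reads in that library and the line joins the means of the days. Sox9, Sox5 and Sox6 reach 6.89, 6.52 and 5.74 on day 6, Runx2 starts at 6.43 and 6.61, and Acan, Pax1, Pax9 and Matn1 stay at or under 3.67.

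Levels of different genes can be compared only per length. Per kilobase of annotated exon, Sox9 stood at 6.01 scaled reads on day 0, 2.70 on day 2, 15.1 on day 4 and 28.3 on day 6. Sox5 was at 6.31 and Sox6 at 3.54 scaled reads per kilobase on day 6. The order on day 6 was thus Sox9, Sox5, Sox6, Pax9 (2.32), Pax1 (1.60), Runx2 (1.45) and Acan (0.152), in 1 library and with no replicate check. On day 0 Runx2 led with 10.3, ahead of Sox9. Exon length counts every annotated exon, so genes with many isoforms, such as Sox5 and Sox6, are set lower than a single transcript would put them.

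Runx2 (chr17:44495987-44814797, minus strand), the regulator of osteoblasts and hypertrophic cartilage, was highest on day 0. It had levels of 6.43 and 6.61 in the day 0 libraries, 2.69 and 2.71 in those of day 2, 0 and 2.69 in those of day 4 and 3.79 in that of day 6. The day 0 libraries stood far above all others, and the level after day 0 rested on about 4.2 to 11.3 reads where it was above 0. Runx2 fell from 6.52 ± 0.13 to 2.70 ± 0.01 (SD, n = 2) by day 2 (log2 -3.82, SE 0.83, adjusted p = 0.0317). It was the 1 member called of 8 tested there, against 12% of all genes called, 5.76% higher and 6.2% lower. Against day 0, day 4 was lower by a log2 of -5.17 (adjusted p = 0.00668). That value was -6.52 without day 4 replicate 2 and -3.83 without day 4 replicate 1, the library listed at 0. Without day 0 replicate 1 or 2 the day 4 call was lost (adjusted p = 0.168 or 0.192), and the day 2 call was lost without any 1 library except day 4 replicate 2 (adjusted p = 0.0549 to 0.344). The change of 2.45 from day 4 to day 6 did not pass (adjusted p = 0.194).

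Fibroblast markers moved with Runx2. All 14 genes of a feeder fibroblast list, among them Col1a1, the main fibrillar collagen chain, were readable in both day 0 libraries. The list summed to 14.43 and 14.63 in the day 0 libraries, 10.42 and 9.87 in those of day 2, 8.65 and 8.52 in those of day 4 and 8.83 in that of day 6. No marker of it was at 0 on days 0 and 2, S100a4 was at 0 in day 4 replicate 1 and on day 6, and Lum in day 4 replicate 2. From day 0 to day 2, 12 of the 14 were called lower and 0 higher, at a median of -4.69 beside 0.05 over all genes. In that comparison 6.2% of all genes were called lower and 5.76% higher. In bulk RNA fewer cells of a type and less RNA per cell cannot be told apart, and the part of feeder cells in the change of Runx2 was not tested.

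For Sox9, Sox5 and Runx2, the 3 members averaging log2 of 11 or more, the genes that moved most like each over the 7 libraries were found among 10849 genes, as a description. For Runx2 these were Fads3 (Pearson r = 0.989), its paralog Runx1 (r = 0.987) and Coch (r = 0.986). Runx1, a regulator of blood formation, stood at 6.00 and 6.30 on day 0 and between 1.20 and 4.10 afterwards. For Sox9 they were Ebf3 (r = 0.992), Heg1 (r = 0.987) and Zfp36l1 (r = 0.986), each lowest on day 2 like Sox9. For Sox5 they were Erlin2 (r = 0.998), Ept1 (r = 0.993) and Ptpra (r = 0.991), each with a narrow range of levels. Sox9 and Sox5 had r = 0.904 with each other, and Runx2 had -0.237 with Sox9 and -0.265 with Sox5. The 7 libraries come from 4 days and were normalized together.

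Pax1 and Pax9, paired-box factors of the sclerotome, were low throughout. Pax9 (chr12:56691767-56712822, plus strand) had levels of 2.14 and 2.36 in the day 0 libraries, 3.41 and 2.71 in those of day 2, 0 and 1.89 in those of day 4 and 3.67 in that of day 6. Its day 6 level rested on about 10.3 reads. Both day 4 libraries lay below all others, yet the step from day 2 to day 4 (log2 -2.11, 95% interval -3.84 to -0.38, adjusted p = 0.157) and the step from day 4 to day 6 (2.72, 0.61 to 4.84, adjusted p = 0.119) did not pass. Pax1 (chr2:147361925-147393295, plus strand) had levels of 1.21 and 2.11 in the day 0 libraries, 1.08 and 0 in those of day 2, 0 and 1.12 in those of day 4 and 3.03 in that of day 6. The day 6 library held its highest level, on about 6.3 reads, and the change from day 4 was 2.47 (0.45 to 4.50, adjusted p = 0.132). In the step to day 6 none of the 8 tested members was called by limma (0%, with 4 at an unadjusted p under 0.05), and 4.46% of all genes were, 1.27% higher and 3.18% lower. The members' median change was 1.72, beside 0.00 over all genes. Pax1 and Pax9 also act in pharyngeal endoderm. Of 12 genes of an endoderm and foregut list, 11 were readable in the day 6 library and 10 in each day 4 library. In the step to day 6 limma called Nkx2-1 higher (log2 3.67, adjusted p = 0.0219) and Epcam lower (-1.48, adjusted p = 0.0483). The median change of that list was -0.42. Which cells carried the RNA of Pax1 and Pax9 was not tested.

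Nkx3-2 (chr5:41761483-41764501, minus strand), a homeobox repressor that promotes cartilage formation, was listed at 0 in all 7 libraries. The level of 3 reads was 1.45 to 2.30 across these libraries. An exact 0 can also be a failed estimate in this table.

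Neither matrix member passed in any comparison. Acan (chr7:79053483-79115099, plus strand), which encodes aggrecan, the large proteoglycan of cartilage, had levels of 3.44 and 3.42 in the day 0 libraries, 3.36 and 2.93 in those of day 2, 1.20 and 2.39 in those of day 4 and 1.10 in that of day 6. The day 6 level was that of about 1.0 read, and the day 4 levels those of 1.0 and 5.0 reads. Days 0 and 2 lay above days 4 and 6, but the step from day 2 to day 4 did not pass (log2 -1.35, 95% interval -2.70 to -0.00, adjusted p = 0.231), nor did day 4 against day 0 (-1.64, adjusted p = 0.0871). Matn1 (chr4:130944385-130955475, plus strand), which encodes matrilin-1, a protein of cartilage matrix, had levels of 1.45 and 1.58 in the day 0 libraries, 0 and 1.09 in those of day 2, 1.20 and 0 in those of day 4 and 0 in that of day 6. It never exceeded the level of 3 reads, and its changes cannot be read at this depth.

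**Figure D2:**
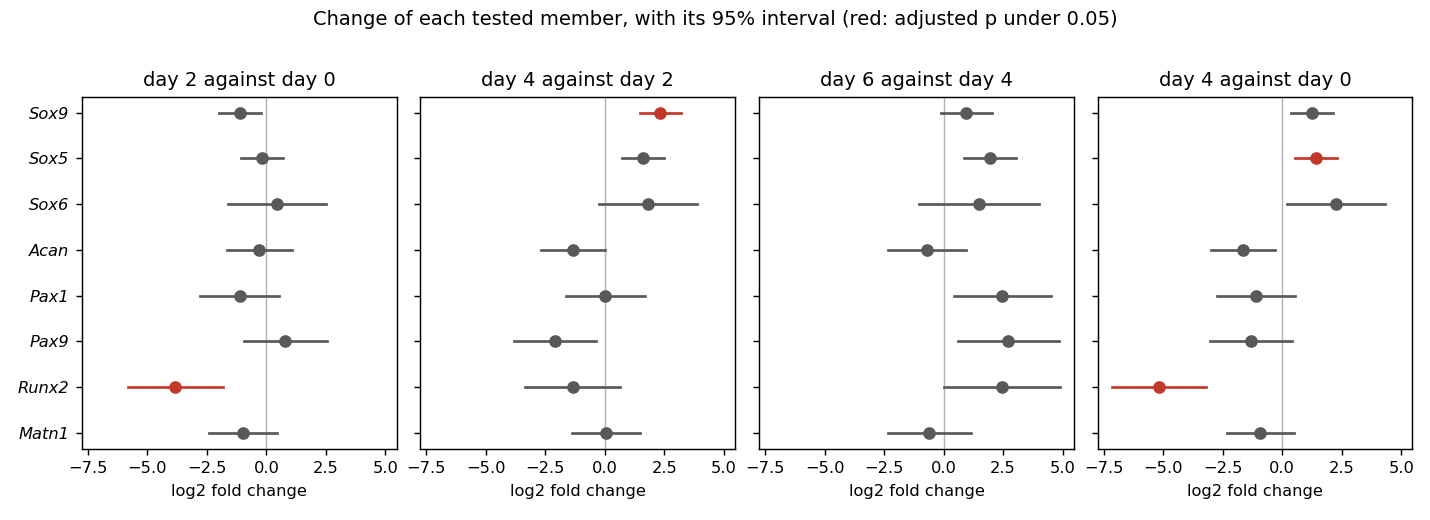
Log2 fold change of the 8 tested members in 4 comparisons, with the 95% interval of limma and red where the adjusted p was under 0.05. Red points are Runx2 (-3.82 and -5.17), Sox9 in day 4 against day 2 (2.33) and Sox5 in day 4 against day 0 (1.42). The comparisons share libraries, and day 6 is 1 library.

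In day 4 against day 0, 2 of the 8 tested members were called, Sox5 higher and Runx2 lower, a share of 25% where 21.7% of all genes were called, 11.3% higher and 10.4% lower. Over the whole course limma's F test called Sox9 (adjusted p = 0.00779), Sox5 (0.0063) and Runx2 (0.0187), 3 of 8 or 37.5%, beside 28.6% of all genes. Single libraries ended each of those 3 calls, with the highest adjusted p at 0.127 for Sox9 and 0.308 for Runx2, both without day 0 replicate 2, and at 0.0632 for Sox5 without day 4 replicate 1. These shares were not tested against each other, and the members were chosen with earlier results of these data known.

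Other genes of cartilage matrix were split. Col2a1, the type II collagen that SOX9 activates in cartilage and that early neuroepithelium and notochord also make, had levels of 4.59 and 5.14 in the day 0 libraries, 8.79 and 7.45 in those of day 2, 8.36 and 8.13 in those of day 4 and 8.04 in that of day 6. It rose by a log2 of 3.26 by day 2 (SE 0.43, adjusted p = 0.00654), in the same libraries in which the level of Sox9 was lowest. Its later steps were 0.13 and -0.21 (adjusted p = 0.956 and 0.903). The day 2 call was lost without any 1 library except day 2 replicate 2 (adjusted p = 0.0541 to 0.174). Of the 13 tested genes of the list, Col2a1 rose and Col11a1, a minor fibrillar collagen chain, fell by 1.36 on day 2. Among all genes 5.76% were called higher and 6.2% lower in that step. The Col11a1 call was lost without any 1 library (adjusted p = 0.0691 to 0.203). By limma 0 were called in either later step, with 3 (day 4) and 2 (day 6) at an unadjusted p under 0.05. The shares of all genes called in those steps were 3.59% and 4.46%, so a count of 0 in 13 is little different. In day 4 against day 0, where 21.7% of all genes were called and 11.3% higher, 3 of 13 rose, namely Col2a1 (3.38), Matn3, another matrilin (1.77), and Lect1, which encodes chondromodulin (listed at 0.40 and 0 on day 0, then 4.22 and 2.49 on day 4). Each of those calls was lost without either day 0 library (adjusted p = 0.108 to 0.223), and that of Matn3 without each of the 6 libraries in turn (0.0538 to 0.169). Col9a1, a chain of the type IX collagen of cartilage fibrils, went from 3.21 and 2.07 in the day 4 libraries to 5.23 in that of day 6, a change that did not pass (2.59, adjusted p = 0.132). Comp and Chad, products of mature cartilage, stayed at or under 1.45 in every library. In contrast, Col11a1, Hapln1 and Col9a3 had their highest levels in the day 6 library (6.97, 4.13 and 3.25). Day 6 is 1 library, none of their steps from day 4 was called, and Col11a1 already had 6.71 and 6.51 on day 0. Matn3 and Col2a1 went the other way, with 3.51 and 8.04 on day 6. Their highest levels were 5.05 on day 4 and 8.79 on day 2.

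Some genes of bone and hypertrophic cartilage stood highest on day 0, as Runx2 did, whereas Alpl, alkaline phosphatase, had its highest level in day 2 replicate 1 (9.10) and Sp7 in the day 6 library. Of 11 tested genes 3 were called lower by day 2 and 0 higher, at a median of -0.20 beside 0.05 over all genes. The shares of all genes called there were 6.2% lower and 5.76% higher. Col10a1, the collagen of hypertrophic cartilage, had levels of 6.20 and 6.93 in the day 0 libraries, 0 and 2.25 in those of day 2, and was listed at 0 from day 4. Mmp13, a collagenase of hypertrophic cartilage and fibroblasts, was at 4.06 and 4.37 on day 0 and listed at 0 in all later libraries. Spp1, osteopontin, which many cell types make, fell from 12.09 and 12.26 to 9.27 and 9.30 (log2 -2.88, adjusted p = 0.000496) and fell by 2.51 again by day 4. The day 2 call of Spp1 was lost only without day 4 replicate 1 (adjusted p = 0.0503), that of Mmp13 without day 2 replicate 1 or day 4 replicate 1 (0.0513 and 0.0563), and that of Col10a1 without any 1 library except day 2 replicate 2 (0.0541 to 0.198). The later call of Spp1 was lost without each of the 6 libraries in turn (0.0853 to 0.172). Sp7, the osteoblast factor downstream of Runx2, had levels of 1.81 and 2.04 in the day 0 libraries, 0 and 1.79 in those of day 2, 0 and 1.34 in those of day 4 and 2.72 in that of day 6, and Ibsp, a bone matrix protein, was at 0 or 0.40. The fall of the feeder list, from 14.43 and 14.63 to 10.42 and 9.87 between the same libraries, stands beside that of this list too, and its part was not tested.

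**Figure D3:**
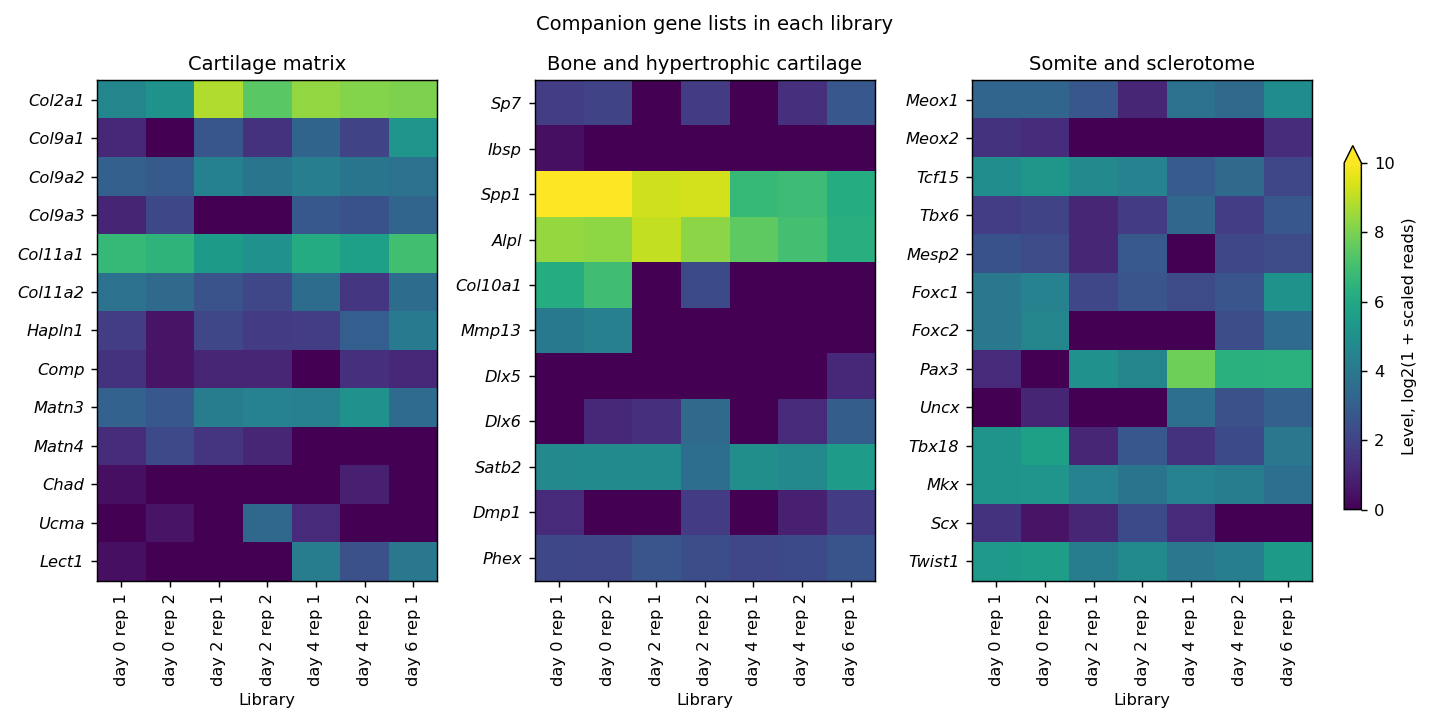
Level (colour, log2 of 1 plus scaled reads, values above 10 in the top colour) of the tested genes of 3 companion lists, 1 row per gene and 1 column per library. Col2a1 changes from 4.59 and 5.14 on day 0 to 8.79 and 7.45 on day 2, Col10a1 and Mmp13 are high on day 0 alone, and Pax3 goes from 1.22 and 0 on day 0 to 5.07 and 4.60 on day 2.

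Somite and sclerotome companions held genes called in both directions. In day 2 against day 0, 3 of 13 fell (Foxc2, Tbx18 and Foxc1, forkhead and T-box factors of mesoderm) and 1 rose, Pax3, a paired-box factor of dermomyotome and dorsal neural tube. Over all genes the shares called were 6.2% lower and 5.76% higher. Foxc2, which acts in sclerotome, had levels of 3.99 and 4.54 in the day 0 libraries, 0 in both of day 2, 0 and 2.39 in those of day 4 and 3.51 in that of day 6. Each of those 4 calls was lost without either day 0 library (adjusted p = 0.11 to 0.282). From day 2 to day 4 limma called 0 of the 13, with 4 at an unadjusted p under 0.05. Of all genes 3.59% were called there. In the step after it, to day 6, the shares of all genes were 1.27% higher and 3.18% lower. From day 4 to day 6 Foxc1 rose (2.62, adjusted p = 0.0487, and 0.0719 to 0.168 without 1 library), at a median of 1.20 for the list beside 0.00 over all genes. Against day 0, day 4 had 2 of 13 higher (Pax3 and Uncx) and 6 lower, at a list median of -1.34 beside 0.00 over all genes, where 11.3% of all genes were higher and 10.4% lower. The call of Uncx was lost without each of the 6 libraries in turn (adjusted p = 0.0725 to 0.203), and that of Pax3 without either day 0 library or day 4 replicate 1 (0.0579 to 0.0876). The calls of Tbx18, Foxc2 and Foxc1, all lower, were each lost without either day 0 library (0.0953 to 0.346). Uncx, a homeobox gene of the caudal part of each sclerotome, was listed at 0 in 3 of the 4 libraries of days 0 and 2 and stood at 3.64 and 2.48 on day 4 and 3.07 on day 6. Meox1, a somite homeobox factor, had levels of 3.75 and 3.45 in the day 4 libraries and 4.88 in that of day 6, and passed in no step. Twist1, a factor of mesenchyme and somite, fell from 5.39 and 5.56 in the day 0 libraries to 3.98 and 4.26 in those of day 4 (log2 -1.35, adjusted p = 0.03, and 0.0912 to 0.183 without any 1 of these 4 libraries), and had 5.46 in that of day 6.

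Among 12 signals that act on sclerotome and cartilage, 2 rose between days 2 and 4 and 0 fell, where 1.45% of all genes were called higher and 2.13% lower. Shh, the sclerotome inducer, had levels of 0 and 0.51 in the day 0 libraries, 2.91 and 0 in those of day 2, 6.09 and 5.52 in those of day 4 and 7.99 in that of day 6. Its level on day 4 lay above all earlier libraries, with a step from day 2 that missed the threshold (log2 4.35, SE 0.91, adjusted p = 0.0576), while day 4 against day 0 passed (5.55, adjusted p = 0.00756). Ptch1, the hedgehog receptor and a target of the pathway, rose from 9.46 and 9.05 to 11.51 and 10.79 (log2 1.90, adjusted p = 0.0184), and Chrd, a BMP antagonist, rose by 4.54 (adjusted p = 0.0252). The list median was 1.38 beside 0.00 over all genes, and both calls were lost without each of the 6 libraries in turn (adjusted p = 0.1 to 0.241). Against day 0, 5 of 12 were higher on day 4, where 11.3% of all genes were higher, among them Fgfr3, the FGF receptor of growth-plate cartilage (1.04 and 2.37 against 5.05 and 4.37), and Pth1r, the receptor of PTHrP (log2 2.32). Each of those calls was lost without either day 0 library (adjusted p = 0.0981 to 0.321). Ihh, Pthlh and Gdf5, ligands of the growth plate and joint, stayed at or under 2.04.

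Markers of other tissues that use the SOX trio also changed over these days, though not always in step with it. The neural progenitor list summed to 10.41 and 10.10 in the day 0 libraries, 10.87 and 10.65 in those of day 2, 11.91 and 11.69 in those of day 4 and 12.58 in that of day 6. Sox5 and Sox6, too, were highest in the day 6 library. All 13 genes of the list were readable in day 4 replicate 2 and on day 6, and 12 of 13 in day 4 replicate 1. Its day 0 sums rested mainly on Sox2 (9.64 and 9.21) and Nes (9.00 and 8.86). Against day 0, limma called 7 of 13 higher on day 2 and 11 of 13 on day 4, and 0 lower on either day. The shares of all genes called higher were 5.76% and 11.3%. On day 2, by contrast, Sox9 lay below both day 0 libraries (3.76 and 3.43). Sox5 changed by a log2 of -0.19 there, and the Sox6 libraries disagreed (3.78 and 1.09). The notochord list summed to 6.66 and 4.90 (day 0), 5.53 and 6.19 (day 2), 9.91 and 9.47 (day 4) and 9.55 (day 6), and the neural crest list to 8.48 and 8.99 (day 0), 8.09 and 7.96 (day 2), 9.69 and 9.00 (day 4) and 10.37 (day 6). For neural crest, day 4 replicate 2 was thus about level with day 0 replicate 2. These sums follow their largest genes. The day 6 notochord sum rested mainly on Shh (7.99), T (7.95) and Foxa2 (7.47). From day 4 to day 6 the median change of the notochord list was -1.34, with Foxj1 at -3.38. Most of the neural crest sum on day 6 was Ednrb (9.88), while Foxd3 was listed at 0 (log2 -3.50 from day 4). Sox10, the defining SOX factor of migrating crest, was between 0.86 and 2.46 and passed in no comparison. Over the same days the somite and sclerotome list summed to 7.58 and 7.87 (day 0), 6.78 and 6.76 (day 2), 8.25 and 7.34 (day 4) and 7.95 (day 6), so that day 4 replicate 2 lay below both day 0 libraries. Pax3, which is also in the neural crest list, was the largest part of the day 4 sums (7.80 and 6.36). The median change of the somite and sclerotome list in day 4 against day 0 was -1.34. Which of these cells carried the RNA of Sox9, Sox5 and Sox6 was not tested.

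**Figure D4:**
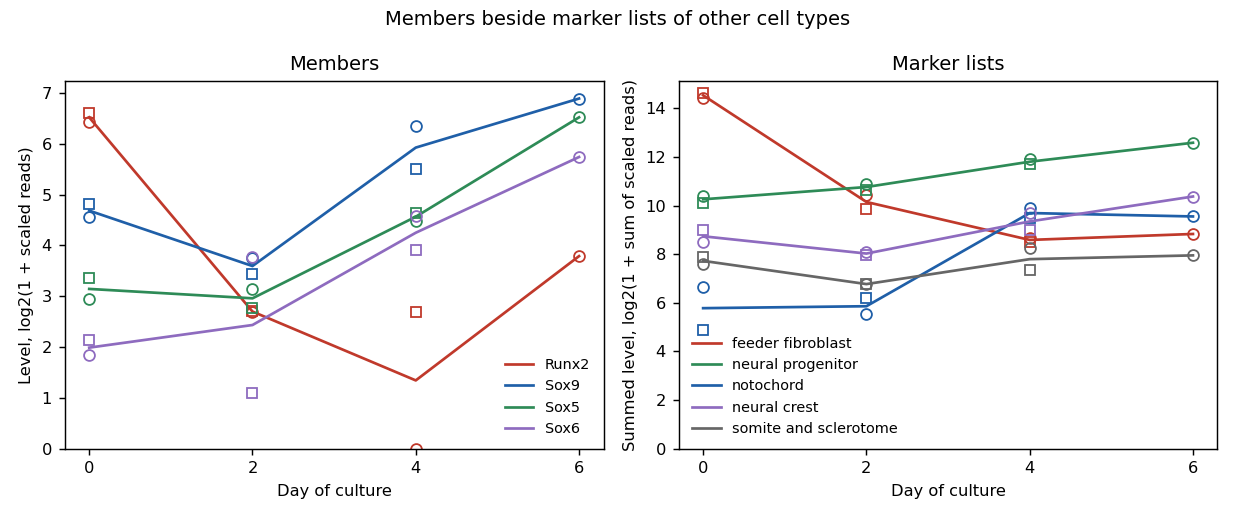
Left, levels of Runx2, Sox9, Sox5 and Sox6 (log2 of 1 plus scaled reads); right, summed levels of 5 marker lists (log2 of 1 plus the sum of scaled reads), by day of culture, with libraries as open circles (replicate 1) and squares (replicate 2) and lines through the means. The feeder list goes from 14.43 and 14.63 on day 0 to 8.83 on day 6, and the neural progenitor list from 10.41 and 10.10 to 12.58.

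Some members share exon sequence with a gene on the opposite strand. Sox5, Pax1 and Runx2 overlap antisense transcripts (Sox5os1, AI646519 and Runx2os1) that were not among the tested genes, and Pax9 overlaps Slc25a21, a mitochondrial carrier gene, which was between 0 and 2.72. The library kit kept strand, but no source here tells whether the counting used it, so reads of these pairs cannot be told apart.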

How the data were processed

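Polyadenylated RNA was measured in 7 libraries (2 each on days 0, 2 and 4, 1 on day 6). The values deposited by the authors are natural log (ln) values of 1 plus scaled reads, a unit inferred from the steps between low values. The sorted columns agree within 0.01 (natural log) over 9896 ranks, so the table was quantile normalized before deposit. Per the submitters' processing notes, reads were placed on GRCm38. Aligner, counter and annotation: not given in the sources used here. Of the columns, 1 has a letter O for a zero in its name and was read as day 0 replicate 2. Values were divided by the natural log of 2. After 103 spike-in, reporter and selection-marker rows and 8674 genes at 0 throughout were left out, 21813 genes were fitted with limma-trend with robust moderation (limma 3.58.1, R 4.3.3), 1 mean per day, 3 residual degrees of freedom, Benjamini-Hochberg adjustment over all genes and a threshold of 0.05. The fit was tested on simulated data. Day 6 has 1 library, assumed to vary like the others. P-values measure the spread between these libraries only. Fold changes understate low genes. Approximate reads were interpolated between the first 12 steps, each held by more than 20 genes. Gene positions are from the GENCODE annotation of that build. All 9 members are named. Of each list shown, up to 4 called genes per comparison are named, with most of the fixed companions. Sox1 and Pou5f1 were also fixed as companions but are not described, nor is a pluripotency list. Col9a1, Col9a3, Hapln1, Comp, Chad, Ibsp, Ihh, Pthlh, Gdf5, Gli1, Hhip and Sox2 were chosen after their values were seen. Similar genes are the 3 with the highest correlation among genes averaging log2 of 11 or more and above 0 in every library, without predicted, ribosomal protein and histone genes. The members and lists were chosen with earlier results of these data known. Of the somite list, 1 gene is not reported here.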

Additional observations from a re-analysis of the deposited data

How the results depend on the processing

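The number of genes called in day 2 against day 0 (2609) was 1419 with no trend in the prior variance and ran from 0 to 691 without 1 library. In day 4 against day 2 (782) it was 1422 with only genes averaging log2 of 11 or more, 172 without the robust option, 168 with no trend and 0 without any 1 library. In day 6 against day 4 (972) it was 606 with the replicate number as a block, 2200 with that filter, 27 with no trend and 0 to 295 without 1 library. In day 4 against day 0 (4731) it ran from 163 to 4152 without 1 library, and over any day (6232) it was 3728 with no trend and 0 to 4181 without 1 library. Beside these counts of 0, limma gave 3511 to 7918 genes at an unadjusted p under 0.05. Of the members' results under the alternatives, 431 stayed on their side of the threshold, 39 lost a call and 9 gained one, and none that was called changed sign. Most of the 431 were not called in the main fit and had no call to lose. All 39 losses fell on the few results that were called. Without the robust option or with no trend, Sox9 in day 4 against day 2 did not pass (adjusted p = 0.0665 and 0.0747), nor did Runx2 in day 2 against day 0 (0.0821 and 0.0952) or over any day (0.0596 and 0.0694), nor Foxc1 in day 6 against day 4 (0.0682 and 0.0768). Sox5 in day 4 against day 0 did not pass without the robust option (0.0511) or with only days 0, 2 and 4 in the fit (0.0503). Same-numbered libraries did not deviate together on every pair of days (r = -0.058, -0.066 and 0.222 over 11800 genes). Their column names share a tag whose meaning is not given, and whether they share a culture or batch was not tested. With the replicate block these did not pass: in day 4 against day 0 Sox5 (adjusted p = 0.0615), Uncx (0.0571) and Fgfr3 (0.0509), in day 2 against day 0 Foxc1 (0.0508), and in day 6 against day 4 Foxc1 (0.0587). With it the counts were 2243, 568, 606, 4295 and 5093 in the order above. Changes at or under the level of 3 reads rest on too few reads to be weighed.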
